A study of Mus musculus with 23 samples.

Results

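The genes described here encode the proteasome, its regulators and its assembly factors in mouse heart. They were chosen by symbol, as protein-coding genes named Psma to Psmg with a number, and 50 of the 46077 genes in the expression table met that rule. A pair of them matches by name alone: Psmc3ip encodes a meiotic recombination factor, and Psme2b is an intronless copy of Psme2 whose reads may be shared with its parent. RNA sequencing covered 23 libraries from male mice. Isolated cardiomyocytes gave 14 libraries: 4 from Panx1 knockout and 4 from Panx1 fl/fl (wild-type) mice after isoproterenol, and 3 from knockout and 3 from wild-type mice after saline. Whole hearts gave 9 libraries after isoproterenol, 4 labelled knockout and 5 labelled wild-type. In knockout mice the floxed Panx1 gene, which encodes the ATP-releasing channel pannexin 1, was deleted with a MyHC6 driver, active in cardiomyocytes, so that other cell types of the heart keep the gene. All controls carry the floxed allele as well. Isoproterenol, a beta-adrenergic agonist, was given at 15 mg/kg/day for 14 days. The labels call the other cardiomyocyte group saline, whereas the design text calls it untreated.

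The proteasome is the barrel-shaped protease that degrades proteins marked with ubiquitin. Its core particle (20S in the plots) is built from rings of alpha and beta subunits, and the cap (the regulatory particle, 19S in the plots) binds and unfolds substrates with a ring of ATPases. The proteolytic sites lie in Psmb5 (chymotrypsin-like), Psmb6 (caspase-like) and Psmb7 (trypsin-like). Interferon gamma induces Psmb8, Psmb9 and Psmb10, which take the places of Psmb5, Psmb6 and Psmb7 in newly built cores, giving the immunoproteasome, known for producing peptides for class I antigen presentation. Leukocytes express it constitutively, and in cardiomyocytes the constitutive form is the usual one. Cardiac proteasome activity is known for turning over sarcomeric and signalling proteins during hypertrophy.

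Psmb8 and Psmb9 lie beside the peptide transporter genes Tap1 and Tap2 in the major histocompatibility complex. Their start regions, with that of Psmb5 for comparison, are shown because Psmb8, Psmb9 and Tap1 differed together between the preparations described below. Sequences come from RefSeq (GRCm38.p6) and run from 250 bases before to 50 after the RefSeq start, on the gene's own strand. That start lies 474 bases inside the deposited gene interval for Psmb8 and 434 inside it for Psmb9, and at its edge for Psmb5. Such a window was found for 42 of the 50 genes. Capitals mark matches on either strand to TTCNNNGAA, the interferon gamma-activated (GAS) element, or to TGANNNNGC, the core of the antioxidant response element bound by Nfe2l1 and related factors. The core of the interferon-stimulated response element (GAAA, any 2 bases, GAAA) was searched on both strands too and has no match in these windows. The windows are chr17:34197945-34198244 (plus strand), chr17:34187281-34187580 (minus strand) and chr14:54617946-54618245 (minus strand).
Psmb8: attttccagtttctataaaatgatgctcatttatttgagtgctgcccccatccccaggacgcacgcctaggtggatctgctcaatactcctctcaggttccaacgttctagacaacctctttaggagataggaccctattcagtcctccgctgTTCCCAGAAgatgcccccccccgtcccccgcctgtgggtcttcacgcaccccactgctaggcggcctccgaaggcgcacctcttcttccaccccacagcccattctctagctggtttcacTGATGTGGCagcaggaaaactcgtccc
Psmb9: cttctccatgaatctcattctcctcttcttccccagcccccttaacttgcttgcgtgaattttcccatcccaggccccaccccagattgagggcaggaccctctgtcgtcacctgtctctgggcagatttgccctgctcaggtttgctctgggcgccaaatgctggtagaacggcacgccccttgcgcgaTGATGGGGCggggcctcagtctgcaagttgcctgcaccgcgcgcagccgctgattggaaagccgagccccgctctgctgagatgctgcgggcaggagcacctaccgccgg
Psmb5: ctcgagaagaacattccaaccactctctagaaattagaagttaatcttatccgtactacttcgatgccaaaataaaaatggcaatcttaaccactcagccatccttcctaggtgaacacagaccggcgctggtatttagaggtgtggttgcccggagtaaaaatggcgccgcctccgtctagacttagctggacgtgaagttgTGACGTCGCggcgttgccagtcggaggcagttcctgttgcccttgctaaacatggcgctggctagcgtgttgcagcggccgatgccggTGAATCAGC

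The Psmb8 window held a GAS match at -97 to -89 from the start. GAS matches occurred in 8.3% of 32851 promoter windows of this length in the genome, and among the proteasome genes in Psmb8, Psmd2 and Psmg1. Psmb8, Psmb9 and Psmb5 all held a TGANNNNGC match, which 41.3% of all windows and 57.8% of the 45 windows of proteasome genes share. The interferon-response core was found in 3.44% of all windows and in 5 proteasome genes: Psmb3, Psmd4, Psmd9, Psme1 and Psmg4. The Psmb9 window is shared over 275 of its 300 bases with that of Tap1, which is transcribed the other way. Because the genes also overlap in the deposited annotation and strand use in counting was not stated, reads of Psmb9 and Tap1 cannot be fully told apart.

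Before any comparison, several features of the libraries bear on the values. Expression is given as FPKM, fragments scaled by gene length and library size. Between 21.03 M and 39.6 M reads per library were assigned to genes. Mitochondrial genes took 46.8% to 69.3% of them in isoproterenol knockout and 75.6% to 79.3% in isoproterenol wild-type preparations, and 69.3% to 80.0% in saline knockout and 55.3% to 65.0% in saline wild-type ones. The share thus separated the genotypes without overlap and in opposite directions under the 2 treatments, and its part in the comparisons of genotype, treatment and interaction was not tested. In whole hearts it averaged 19.7% in those labelled knockout and 23.2% in those labelled wild-type. Panx1 averaged 1.04 ± 0.123 FPKM in isoproterenol knockout cardiomyocytes and 1.55 ± 0.282 FPKM in wild-type ones (SD, n = 4 each), and 1.67 ± 0.361 against 2.21 ± 0.663 FPKM after saline (n = 3 each). In whole hearts it went against the labels, with 0.651 ± 0.189 FPKM in those labelled knockout (n = 4) and 0.412 ± 0.0657 FPKM in those labelled wild-type (n = 5). Myh6, the cardiac myosin heavy chain, averaged 677 ± 302 FPKM in isoproterenol knockout and 479 ± 213 FPKM in wild-type cardiomyocyte preparations, below its 1121 ± 238 and 1404 ± 373 FPKM in hearts labelled knockout and wild-type. The summed level of 10 leukocyte markers was 91.3 to 490 FPKM in isoproterenol cardiomyocyte preparations, against 24.9 to 41.7 FPKM in whole hearts, and that of 7 red-cell markers 5569 to 69779 FPKM against 42.9 to 585 FPKM. Because these markers go against the label, the samples labelled cardiomyocyte are called cardiomyocyte preparations below. In bulk RNA, fewer cells of a type and less RNA per cell cannot be told apart. Libraries PNXM654 and PNXM655 (isoproterenol knockout) and PNXM648 (isoproterenol wild-type) stood apart from the other 11 preparations by a higher cardiomyocyte marker score (9.32, 8.84 and 8.81, against at most 7.87, as mean log2(FPKM + 1) of 12 markers), and results that rest on them are given without them too.

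Of the 50 genes, 47 passed the filter of 1 FPKM in enough cardiomyocyte libraries to be tested, and 46 in whole hearts. Psma8, the testis-specific alpha subunit, Psmb11, the thymus-specific catalytic subunit, and Psmc3ip were not tested in the main fits, and Psmg3, a core assembly chaperone, not in whole hearts. Rescaling, or leaving libraries out, changed which genes passed the filter, so some counts below have another total. Psma8 stayed at or below 0.460 FPKM and Psmb11 at or below 0.443 FPKM in every library. Among the 14 preparations the highest means belonged to Psmb1, a non-catalytic beta subunit (43.0 FPKM), Psmb7 (33.7 FPKM), Psmb5 (33.3 FPKM) and Psmb10 (31.7 FPKM). Psmb8 averaged 8.67 FPKM and Psmb9 4.73 FPKM over the same libraries. Over the 9 whole hearts Psmb7 averaged 81.7 FPKM and Psmb5 66.6 FPKM, and Psmb8 and Psmb9 stood at 2.29 and 1.13 FPKM.

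**Figure D1:**
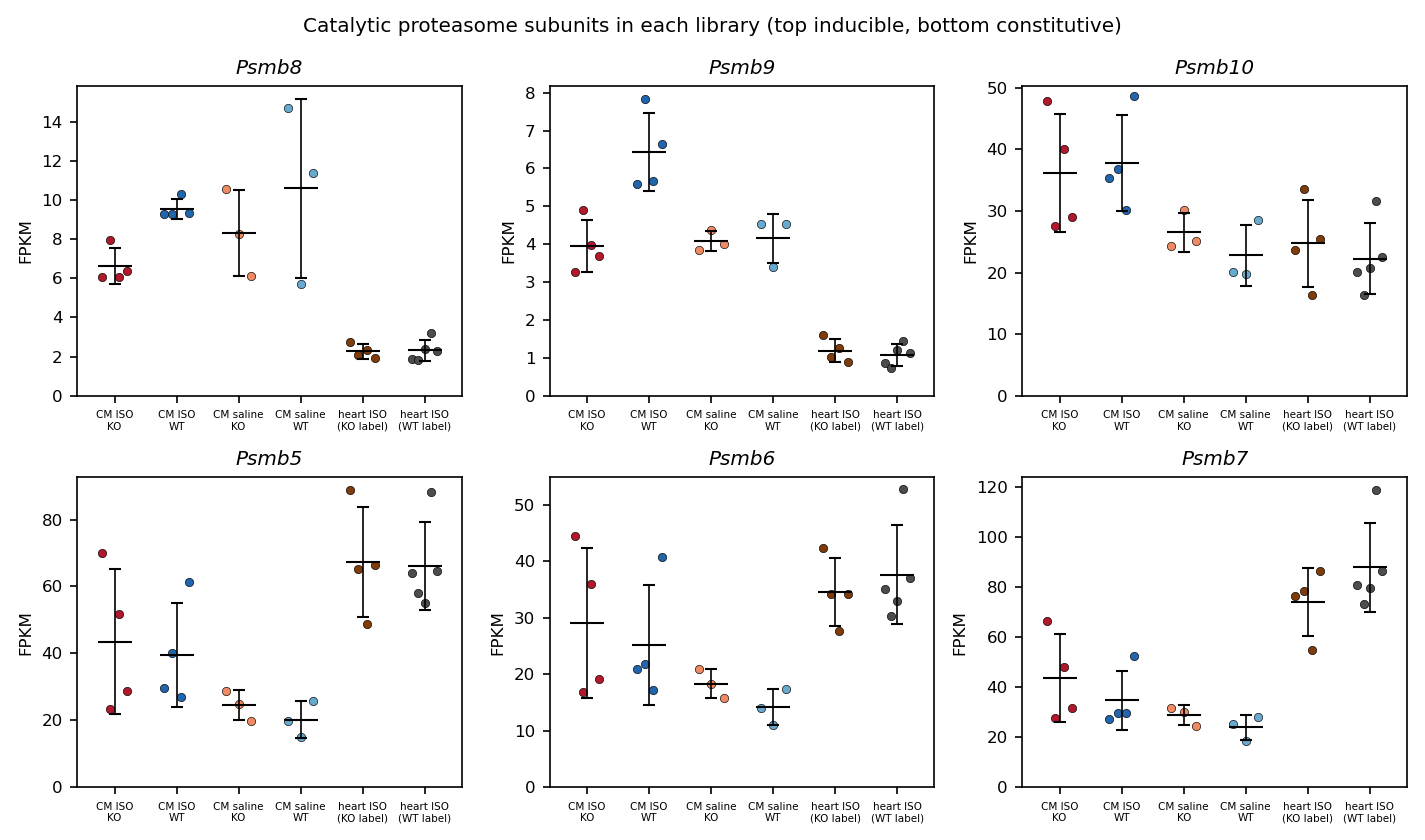
FPKM of the 3 inducible (top row) and 3 constitutive (bottom row) catalytic subunits in each of the 23 libraries, with group mean ± SD (bars). CM marks cardiomyocyte preparations and ISO isoproterenol. All 14 preparations lie above all 9 whole hearts for Psmb8 and Psmb9, whereas Psmb5, Psmb6 and Psmb7 averaged more in whole hearts.

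The first comparison set isoproterenol cardiomyocyte preparations against isoproterenol whole hearts, averaged over genotype. The catalytic subunits split by kind: the 3 inducible ones were higher in the preparations, and 2 of the 3 constitutive ones were lower. Positions are those of the deposited table, which match GRCm38. Psmb8 (LMP7; ENSMUSG00000024338, chromosome 17, 34197721 to 34201454, plus strand) had 6.06, 7.97, 6.09 and 6.39 FPKM in knockout and 9.27, 9.29, 10.3 and 9.33 FPKM in wild-type preparations. Whole hearts labelled knockout had 2.76, 2.07, 2.31 and 1.9 FPKM and those labelled wild-type 1.89, 1.84, 2.4, 3.2 and 2.28 FPKM. The lowest preparation was above the highest heart, and the log2 difference of FPKM + 1 was 1.45 ± 0.09 (SE; limma, Benjamini-Hochberg adjusted p = 3.14e-09, n = 8 and 9).

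Psmb9 (LMP2; ENSMUSG00000096727, chromosome 17, 34181988 to 34187764, minus strand) had 3.27, 4.9, 3.97 and 3.69 FPKM in knockout and 5.6, 7.82, 5.68 and 6.64 FPKM in wild-type preparations. Hearts labelled knockout had 1.59, 1.01, 1.25 and 0.896 FPKM and those labelled wild-type 0.871, 0.723, 1.22, 1.45 and 1.12 FPKM. These groups did not overlap either, with a log2 difference of 1.51 ± 0.10 (limma adjusted p = 4.95e-09). Psmb9 was carried by 237 to 416 reads per isoproterenol preparation and 148 to 344 per whole heart, and Psmb8 by 249 to 576 and 269 to 446.

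Psmb10 (MECL-1; ENSMUSG00000031897, chromosome 8, 105935728 to 105938392, minus strand) was abundant in both kinds of sample. It had 47.9, 27.5, 40.1 and 29.1 FPKM in knockout and 35.4, 36.9, 30.2 and 48.7 FPKM in wild-type preparations, against 23.6, 33.5, 16.3 and 25.5 FPKM in hearts labelled knockout and 20.1, 16.3, 20.7, 31.7 and 22.5 FPKM in those labelled wild-type. The ranges overlapped, and the log2 difference was 0.64 ± 0.17 (limma adjusted p = 0.0026). Without the 3 libraries of high cardiomyocyte score it was 0.43 (limma adjusted p = 0.0332). With FPKM rescaled to all assigned reads, a change that moved the median of all genes by -0.86, the Psmb10 difference became -0.56, while those of Psmb8 (0.46) and Psmb9 (0.65) stayed positive.

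The constitutive counterparts went the other way. Psmb5 (ENSMUSG00000022193, chromosome 14, 54614120 to 54617995, minus strand) had 70.1, 23.5, 51.9 and 28.7 FPKM in knockout and 29.8, 40.2, 26.8 and 61.2 FPKM in wild-type preparations, against 88.9, 65.3, 48.7 and 66.4 FPKM in hearts labelled knockout and 64, 58.2, 55.2, 88.4 and 64.7 FPKM in those labelled wild-type. Among preparations the 3 highest values were those of PNXM654, PNXM648 and PNXM655, and the log2 difference was -0.75 ± 0.22 (limma adjusted p = 0.00635). Leaving these 3 out made it -1.16.

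Psmb7 (ENSMUSG00000026750, chromosome 2, 38588036 to 38644087, minus strand) had 66.4, 27.8, 48.3 and 31.7 FPKM in knockout and 27.1, 29.6, 29.8 and 52.5 FPKM in wild-type preparations, against 76.4, 78.4, 54.8 and 86.4 FPKM in hearts labelled knockout and 80.9, 73.4, 79.8, 119 and 86.5 FPKM in those labelled wild-type. Only PNXM654 lay within the range of the hearts. The level was lower in preparations and fell by 1.08 on the log2 scale (SE 0.19, limma adjusted p = 7.96e-05), with means of 39.1 ± 14.7 FPKM in preparations and 81.7 ± 16.8 FPKM in whole hearts (SD, n = 8 and 9). Psmb6 (ENSMUSG00000018286, chromosome 11, 70525367 to 70527858, plus strand) did not pass, at 27.2 ± 11.3 against 36.2 ± 7.41 FPKM and -0.47 ± 0.21 log2 (limma adjusted p = 0.0519). It passed without the 3 libraries (-0.87, limma adjusted p = 5.78e-05), and as single libraries were left out its limma adjusted p ranged between 0.0111 and 0.117.

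Beyond the catalytic sites, the common core and cap were lower in the preparations. Of all 47 proteasome genes tested, 34 were called (72.3%), against 68.6% of all 11386 genes, so the share called was near the background. The directions differed: 30 of the 47 were lower (63.8%, against 37.4% of all genes) and 4 were higher (8.51%, against 31.1%), the fourth being Psme2b at 0.73 ± 0.12. Among the 31 core and cap subunits without the inducible ones, 25 were lower and 0 higher, with a median log2 difference of -0.63, against -0.08 for all genes. Scaling moved both sides of this contrast: with equal totals outside the mitochondrial chromosome 25 of the 47 were lower and 7 higher, against 3313 lower and 4146 higher of 11379 genes, and with FPKM rescaled to all assigned reads 46 of 48 were lower and 2 higher, against 9786 lower and 599 higher of 11807 genes. By role, 6 of 7 alpha subunits, 1 of 4 non-catalytic beta subunits, 6 of 6 cap ATPases and 10 of 11 other cap subunits were lower.

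Psmd1, the large scaffold of the cap's base, had 3.55 to 4.39 FPKM in the 8 preparations and 7.95 to 10.4 FPKM in the 9 hearts, a log2 difference of -1.02 ± 0.07 (limma adjusted p = 9.86e-09). The groups were far apart, and the spread among preparations was small. Psmd11, a lid subunit, differed by -0.94 ± 0.08, Psmd2, which receives ubiquitin-like shuttle proteins, by -0.90 ± 0.10, and the ATPase Psmc6 by -1.02 ± 0.13. Psme4 (PA200), a single-chain activator that caps the core without ATP, showed the greatest fall among the 47: 5.77 ± 2.14 FPKM in preparations and 19.6 ± 3.34 FPKM in hearts, with a log2 difference of -1.63 ± 0.15. Values of 8 genes lay lower in every preparation than in every heart (17.02% of the 47, against 13.3% of all genes), namely Psma4, Psmc6, Psmd1, Psmd2, Psmd6, Psmd11, Psmd12 and Psme4. Higher in every preparation were Psmb8 and Psmb9 (4.26%, against 13.4% of all genes).

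The interferon-inducible activator did not follow the inducible catalytic subunits. Psme1 and Psme2 encode the PA28 ring, which opens the core gate. Psme1 averaged 26 ± 6.85 FPKM in preparations and 28.4 ± 5.94 FPKM in hearts (-0.13 ± 0.16 log2, limma adjusted p = 0.484), and Psme2 9.62 ± 3.62 against 9.34 ± 1.67 FPKM (-0.01 ± 0.18 log2, limma adjusted p = 0.961). Neither difference exceeded the spread between libraries, and without the 3 libraries of high cardiomyocyte score both were lower in preparations (-0.37 and -0.33, limma adjusted p = 0.0286 and 0.0462). The nuclear activator Psme3 and the inhibitor Psmf1 differed by 0.06 ± 0.13 and 0.09 ± 0.07, and neither passed. Of the core assembly chaperones, Psmg1 (-0.38) and Psmg2 (-0.86) were lower, and Psmg3 and Psmg4 did not pass. Of the base assembly chaperones, Psmd5 (-0.17) and Psmd10 (-0.41) were lower, and Psmd9 (-0.03) did not pass.

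**Figure D2:**
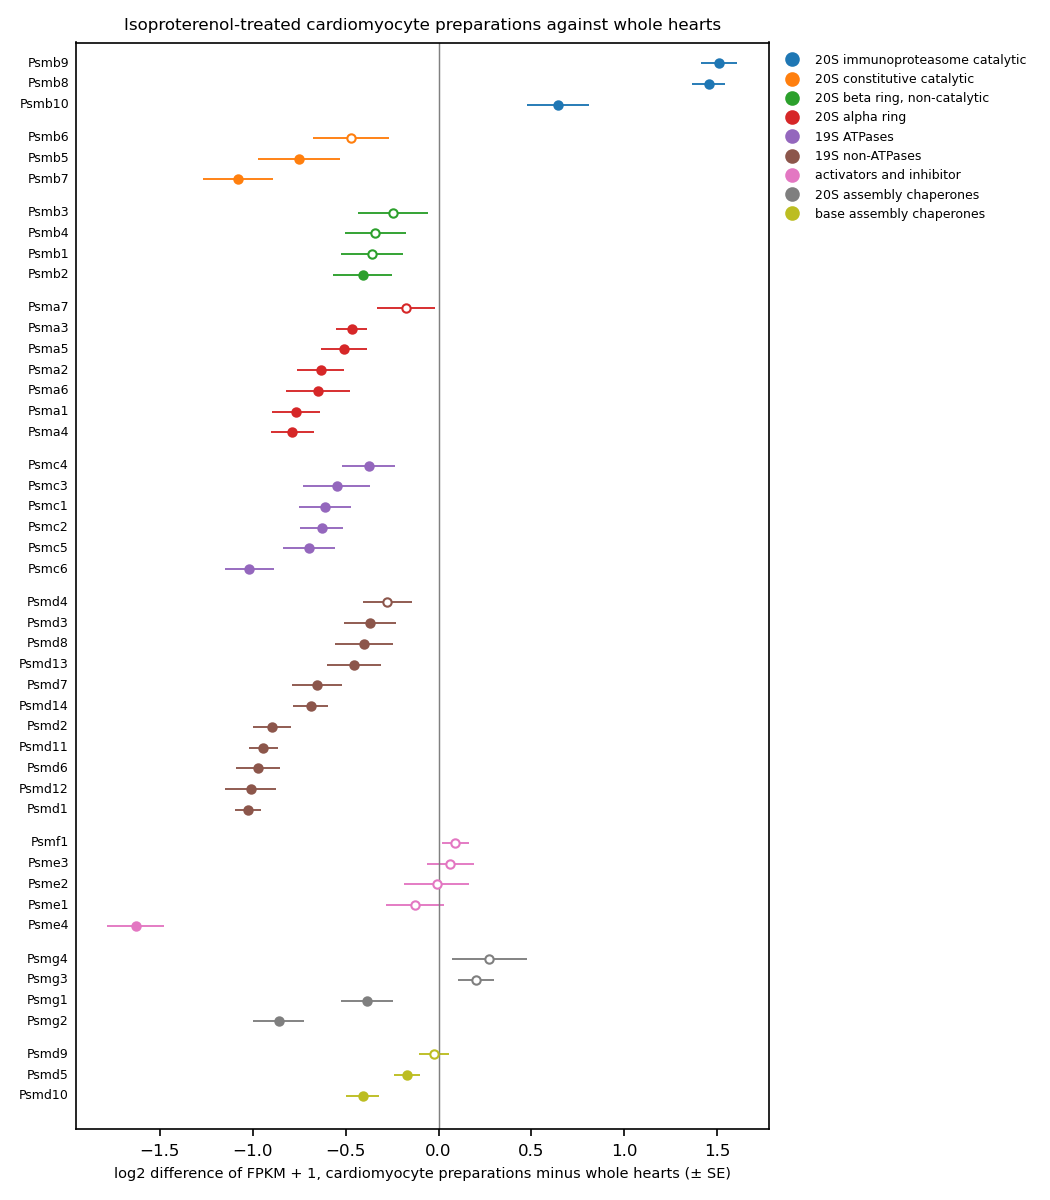
Log2 difference of FPKM + 1 (± SE) between isoproterenol cardiomyocyte preparations and isoproterenol whole hearts for 46 of the 47 tested genes, grouped by role (Psme2b is not drawn). Filled points passed at a limma adjusted p below 0.05. Psmb8, Psmb9 and Psmb10 lie right of 0, at 1.45, 1.51 and 0.64, and the 31 other core and cap subunits lie left of it.

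Genes around the proteasome were read in the same comparison, in which 37.4% of all genes were called lower and 31.1% higher. Of 12 cofactors that bind or regulate it, 10 were lower, among them the ubiquitin-binding activator Zfand5 (-1.04), AI314180, which encodes the Ecm29 adaptor (-1.06), and the deubiquitinase Usp14 (-0.93). Nfe2l1, the transcription factor that drives proteasome genes when activity is low, was lower by -0.86, as was the enzyme that processes it, Ngly1 (-0.48), and 5 of the 9 genes on that list were lower and 1, the ligase Syvn1, higher (0.32). Among 8 shuttle factors and parts of the p97 unfoldase, 7 were lower, including Vcp (-0.80), Ufd1l (-0.68) and Rad23b (-0.69). Muscle ubiquitin ligases were lower in 9 of 10 cases, with Trim55 (MuRF2) at -2.20 and Fbxo32 (atrogin-1) at -1.50. The ubiquitin genes Ubb (0.46) and Rps27a (0.57) were higher, and neither passed without the 3 libraries of high cardiomyocyte score (0.34 and 0.19).

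Class I antigen-processing genes were higher in 8 of 11 tested, with a median of 1.52. Of all genes, 31.1% were called higher and 37.4% lower in this comparison, with a median of -0.08. Tap1, which imports peptides into the endoplasmic reticulum, averaged 5.11 ± 0.823 FPKM in preparations and 1.12 ± 0.23 FPKM in hearts (1.52 ± 0.07 log2). Its partner Tap2 differed by 0.92 ± 0.08, the class I heavy chain H2-D1 by 1.85 ± 0.15 and the non-classical H2-T23 by 1.74 ± 0.13. On the interferon gamma list 12 of 16 were higher and 1 lower, with the transcription factor Irf1 at 1.32, Irf9 at 0.89, the ubiquitin-like Isg15 at 1.75 and the feedback inhibitor Socs1 at 1.32. In this comparison all 10 leukocyte markers (median 1.99), all 11 endothelial markers (median 1.46) and all 10 macrophage markers (median 1.25) were higher as well, and 11 of 12 cardiomyocyte markers were lower (median -1.17). Their part in the proteasome differences was not tested. RNA was extracted with TRIzol and columns from cells and with columns after bead lysis from tissue, so that preparation, extraction and cell makeup cannot be told apart.

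Within a library, the balance of each catalytic pair does not depend on the library's scaling factor. It was taken as the inducible gene's percentage of the pair's summed FPKM. Psmb8 made up 7.96, 25.3, 10.5 and 18.2% of Psmb8 plus Psmb5 in isoproterenol knockout preparations, 23.7, 18.8, 27.7 and 13.2% in isoproterenol wild-type, 26.8, 24.9 and 23.6% in saline knockout and 42.8, 27.4 and 30.5% in saline wild-type ones. Hearts labelled knockout had 3.35 ± 0.792% and hearts labelled wild-type 3.4 ± 0.5% (mean ± SD, n = 4 and 5). Every preparation lay above every heart, and PNXM654 and PNXM655 were the lowest preparations.

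Psmb9 made up 13.8 ± 6.92% of Psmb9 plus Psmb6 in isoproterenol knockout, 21.6 ± 5.5% in isoproterenol wild-type (n = 4 each), 18.4 ± 2.52% in saline knockout and 22.9 ± 1.97% in saline wild-type preparations (n = 3 each), and 3.35 ± 0.793% and 2.79 ± 0.497% in hearts labelled knockout and wild-type. Psmb10 was close to even with Psmb7 in preparations, at 46.2 ± 3.39% in isoproterenol knockout, 52.6 ± 4.08% in isoproterenol wild-type, 47.9 ± 4.0% in saline knockout and 48.8 ± 4.04% in saline wild-type, against 24.8 ± 3.44% and 20.1 ± 1.12% in hearts. Even there, all 14 preparations (41.9% or more) were above all 9 hearts (at most 30.0%). The level of a pair depends on the lengths used: the deposited lengths are 2736 bases for Psmb8 and 3659 for Psmb9, against 1628 and 1352 for their principal transcripts, and with those the Psmb8 share in saline wild-type preparations was 39.6% to 56.5% rather than 27.4% to 42.8%.

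**Figure D3:**
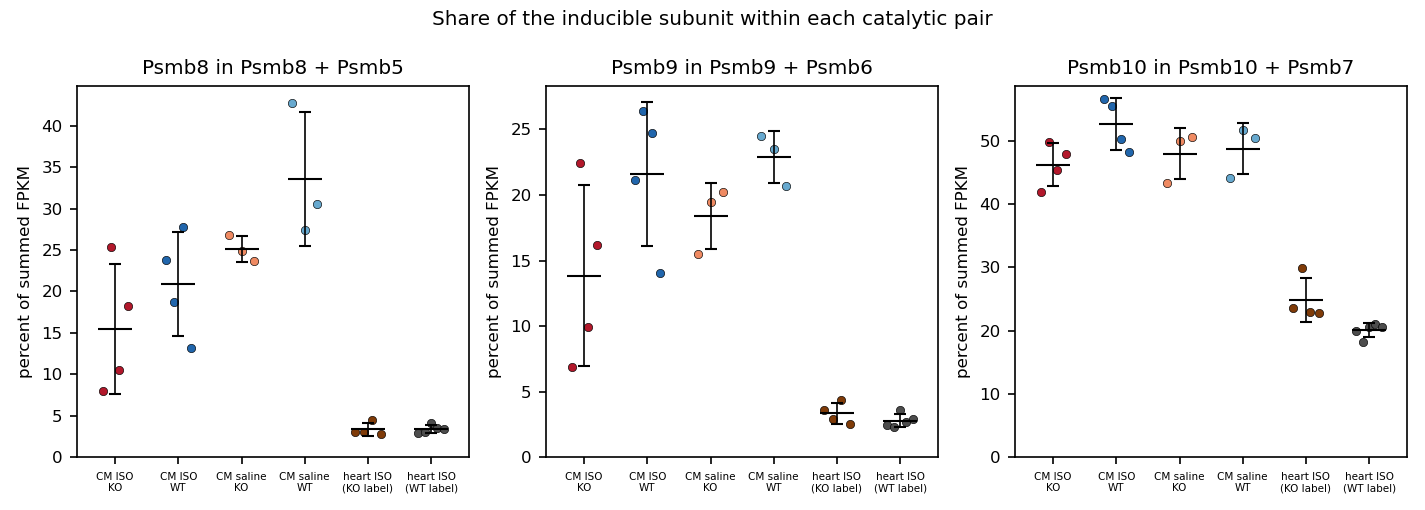
Share of the inducible subunit in the summed FPKM of each catalytic pair, in percent, per library, with group mean ± SD (bars). In all 3 pairs every cardiomyocyte preparation (CM) lies above every whole heart, and the lowest preparation shares for Psmb8 (7.96%) and Psmb9 (6.87%) both come from 1 isoproterenol (ISO) knockout library.

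The next comparison asked whether deletion of Panx1 altered proteasome genes under isoproterenol. In the preparations 0 of 11919 genes passed at an adjusted p below 0.05 (limma; 739 had an unadjusted p below 0.05, and voom on the recovered reads also called 0), so the background of called genes was 0% and 0 of 47 proteasome genes were called. Psmb9 had the smallest p of the 47. Its 3.27, 4.9, 3.97 and 3.69 FPKM in knockout preparations were all below the 5.6, 7.82, 5.68 and 6.64 FPKM in wild-type ones, a log2 difference of -0.58 ± 0.14 (limma unadjusted p = 0.000986, adjusted p = 0.797). Psmb8 had 6.06, 7.97, 6.09 and 6.39 FPKM in knockout and 9.27, 9.29, 10.3 and 9.33 FPKM in wild-type preparations, again without overlap, and differed by -0.47 ± 0.23 (limma unadjusted p = 0.0585, adjusted p = 0.797). These were the only members whose groups did not overlap: 2 of 47 lay lower in every knockout library (4.26%, against 2.47% of all genes) and 0 lay higher (against 0.873%). Rescaled to all assigned reads, the differences were 0.12 for Psmb9 and 0.27 for Psmb8, while the median of all genes moved by 0.56. Then 36 of 46 proteasome genes passed, all of them higher in knockout libraries. Of all 11304 genes tested with that scaling, 5073 passed higher and 10 lower.

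Psmb10 did not separate the genotypes, with 47.9, 27.5, 40.1 and 29.1 FPKM in knockout and 35.4, 36.9, 30.2 and 48.7 FPKM in wild-type preparations (-0.08 ± 0.22 log2). The constitutive subunits spread widely within both groups: Psmb5 differed by 0.08 ± 0.34, Psmb6 by 0.17 ± 0.32 and Psmb7 by 0.29 ± 0.28 (limma adjusted p = 0.981, 0.936 and 0.849). Without the 3 libraries of high cardiomyocyte score Psmb5 stood at -0.28 and Psmb6 at -0.14, and Psmb8 and Psmb9 at -0.38 and -0.47. Psme1 (-0.04 ± 0.24) and Psme2 (0.26 ± 0.26) did not pass, nor did the other members with small p: Psme2b (-0.42 ± 0.20), Psmc6 (0.41 ± 0.20), Psme4 (0.44 ± 0.22) and Psme3 (-0.50 ± 0.26). Over the 31 core and cap subunits the median was 0.09 (all genes, 0.01), and 26 differences were positive. Of all 47 tested, 33 were positive (median 0.08), and this turned with single libraries: without PNXM654 17 of 47 were positive (median -0.07), and without the 3 libraries of high cardiomyocyte score 16 of 48 (median -0.11).

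Pair shares overlapped between the genotypes. The difference of the mean log2(FPKM + 1) of the 3 inducible from that of the 3 constitutive genes was -2.40, -1.02, -2.02 and -1.41 in knockout and -0.98, -1.02, -0.91 and -1.72 in wild-type preparations. The knockout values spread over more than 1 log2 unit, with PNXM654 and PNXM655 lowest, and PNXM656 reached the wild-type values.

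Class I and interferon genes had differences of the same sign as Psmb8 and Psmb9 in this comparison, and 0 of them was called. H2-D1 averaged 158 ± 27.7 FPKM in knockout and 248 ± 34.6 FPKM in wild-type preparations (-0.66 log2), H2-K1 112 ± 16 against 170 ± 23.4 FPKM (-0.60), and Tap1 4.4 ± 0.21 against 5.82 ± 0.434 FPKM (-0.34). H2-T23 differed by -0.41, Irf1 by -0.34 and the interferon-induced GTPase Gbp2 by -0.63. All 6 had a limma adjusted p of 0.797. The class I list had a median of -0.33 with 9 of 12 negative, and the interferon list -0.23 with 11 of 16 negative. Zfand5 (0.33) and Fbxo32 (0.36) had positive differences that did not pass.

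Leukocyte markers differed in the same direction. All 10 were negative in knockout against wild-type isoproterenol preparations, with a median of -0.87 and 0 called, and their summed level was 91.3 to 175 FPKM in knockout and 149 to 490 FPKM in wild-type libraries. The 10 neutrophil markers had a median of -1.45, with sums of 26.3 to 821 FPKM in knockout and 37.0 to 2550 FPKM in wild-type libraries. Cardiomyocyte markers were positive in 12 of 12 cases (median 0.55), with sums of 3932 to 20127 FPKM in knockout and 4313 to 14696 FPKM in wild-type libraries. Their part in the Psmb8 and Psmb9 differences was not tested beyond the relations given below.

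**Figure D4:**
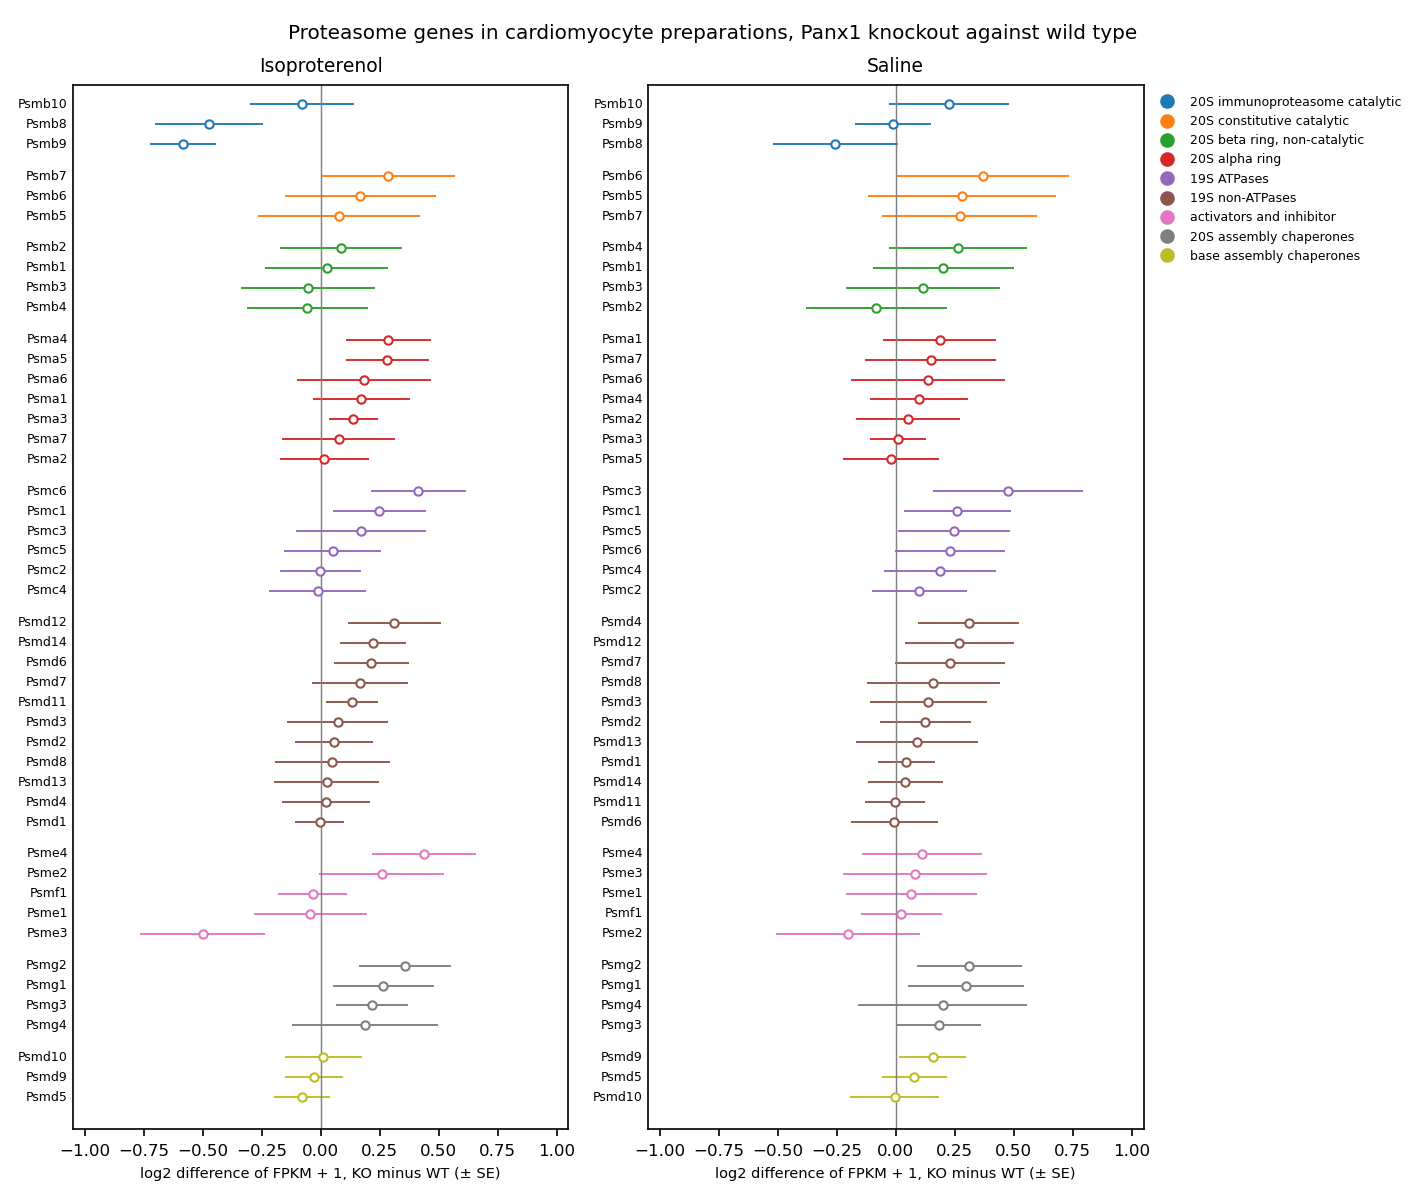
Log2 difference of FPKM + 1 (± SE) between knockout and wild-type cardiomyocyte preparations after isoproterenol (left) and after saline (right), for 46 tested genes grouped by role. Open points did not pass at a limma adjusted p below 0.05, which is all of them. After isoproterenol Psmb9 (-0.58) and Psmb8 (-0.47) lie farthest left with Psme3 (-0.50), and after saline Psmb9 lies at -0.01.

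After saline, 0 of 11919 genes passed between knockout and wild-type preparations (limma; 421 at an unadjusted p below 0.05, voom 0), and again 0 of 47 proteasome genes. Psmb8 had 10.6, 8.26 and 6.13 FPKM in knockout and 14.7, 5.69 and 11.4 FPKM in wild-type preparations, which overlapped (-0.26 ± 0.26 log2, limma adjusted p = 0.895). Psmb9 had 3.85, 4.39 and 4.01 FPKM in knockout and 4.52, 3.39 and 4.54 FPKM in wild-type preparations, nearly the same levels (-0.01 ± 0.16 log2). Psmb10 differed by 0.22 ± 0.25, Psmb5 by 0.28 ± 0.40, Psmb6 by 0.37 ± 0.37 and Psmb7 by 0.27 ± 0.33. Psme1 (0.07 ± 0.28) and Psme2 (-0.20 ± 0.31) did not pass either.

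A group of cap and assembly genes separated the saline libraries without passing the test. Psmc3, an ATPase of the cap, had 24.1, 25 and 23.4 FPKM in knockout and 16.9, 14.6 and 20.3 FPKM in wild-type preparations (0.48 ± 0.32 log2, limma adjusted p = 0.895). Psmd4, a ubiquitin receptor, had 14.5, 14.4 and 15.1 FPKM in knockout and 12.3, 10.01 and 12.9 FPKM in wild-type preparations (0.31 ± 0.22 log2). Together with Psmc1, Psmc5, Psmd7, Psmg2 and Psmg3 they made 7 of 47 genes that were higher in every knockout library (14.9%, against 11.9% of all genes), a share near the background, and 0 were lower in every one (against 2.89%). The assembly chaperones Psmg1 and Psmg2 differed by 0.30 ± 0.25 and 0.31 ± 0.22. Rescaled to all assigned reads, which moved the median of all genes by -0.70, the median of the tested proteasome genes was -0.72. Of their 46 differences 0 were positive, and 20 of the 46 genes passed, all lower. Of all 11304 genes tested with that scaling, 5975 passed lower and 8 higher.

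The inducible-minus-constitutive difference did separate the saline genotypes, at -1.31, -1.11 and -1.09 in knockout and -0.72, -0.88 and -0.94 in wild-type preparations. All knockout values were below all wild-type values. Among single genes, 2.89% were lower and 11.9% higher in every knockout library. These shares are no background for a within-library score over several genes, and none was computed for such scores. The group means of the difference were -1.17 ± 0.12 and -0.85 ± 0.11 (SD, n = 3 each). The difference is a score over chosen genes and has no test. Marker lists differed beside it: 12 of 12 cardiomyocyte markers were positive (median 1.00; summed level 5148 to 5830 FPKM in knockout and 1882 to 3377 FPKM in wild-type libraries) and 10 of 10 leukocyte markers negative (median -0.49; 146 to 286 against 182 to 371 FPKM). Endothelial markers were positive in 11 of 11 cases (median 0.40, 3 with an unadjusted p below 0.05; 414 to 448 against 276 to 378 FPKM), and dissociation and heat-shock genes negative in 11 of 12 (median -0.48, 4 with an unadjusted p below 0.05; 98.3 to 138 against 116 to 242 FPKM). Their part was not tested. Outside the proteasome, the muscle ligase Trim54 (1.27 ± 0.44) and Tap1 (-0.27 ± 0.16) did not pass.

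Isoproterenol was then set against saline within each genotype. These comparisons share their libraries with those above, so their values are given side by side and are not separate evidence. In wild-type preparations 84 of 11919 genes were called by limma (0.705%), 78 higher (0.654%) and 6 lower (0.0503%), and 0 of the 47 proteasome genes. An unadjusted p below 0.05 was found for 8 of the 47, against 2896 of the 11919 genes. With voom on the recovered reads 98 genes were called, and 0 proteasome genes. Without the 3 libraries of high cardiomyocyte score 1 gene was called. With single libraries left out, 0 genes were called without PNXM644, PNXM647, PNXM648 or PNXM661, 18 without PNXM657, 32 without PNXM646, 47 without PNXM663 and 222 without PNXM645, and 0 proteasome genes in each case. Psmb9 had 5.6, 7.82, 5.68 and 6.64 FPKM after isoproterenol and 4.52, 3.39 and 4.54 FPKM after saline, without overlap (0.53 ± 0.15 log2, limma adjusted p = 0.113). Psmb10 had 35.4, 36.9, 30.2 and 48.7 FPKM after isoproterenol and 20.02, 19.8 and 28.5 FPKM after saline, also without overlap (0.71 ± 0.24 log2, limma adjusted p = 0.146). Psmb8 overlapped between treatments, at -0.05 ± 0.25.

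The constitutive subunits had positive differences in wild-type preparations, of 0.89 ± 0.37 for Psmb5, 0.74 ± 0.34 for Psmb6 and 0.49 ± 0.31 for Psmb7. So did the non-catalytic beta subunits Psmb4 (0.76 ± 0.27), Psmb3 (0.75 ± 0.31) and Psmb1 (0.69 ± 0.28) and the ATPase Psmc3 (0.69 ± 0.30). Without the 3 libraries of high cardiomyocyte score Psmb5 was at 0.66, Psmb6 at 0.49 and Psmb7 at 0.28. Psmb4 was then at 0.65, Psmb3 at 0.56, Psmb1 at 0.58 and Psmc3 at 0.47. Psme1 differed by 0.47 ± 0.26 and Psme2 by 0.04 ± 0.29. In all, 10 of 47 genes were higher in every isoproterenol library (21.3%, against 11.7% of all genes) and 0 lower in every one (against 7.11%): Psmb4, Psmb5, Psmb9, Psmb10, Psmc1, Psmc3, Psmc5, Psmd4, Psmd7 and Psmd9. The 31 core and cap subunits had a median of 0.36, against 0.04 for all genes. Of all 47 tested, 39 were positive (median 0.27), against 22 (median -0.03) with equal totals outside the mitochondrial chromosome. Rescaled to all assigned reads, with a shift of -0.82 in the median of all genes, Psmb9 stood at -0.45, Psmb10 at -0.45 and Psmb5 at -0.26. Then 24 of 46 proteasome genes passed, all lower, and of all 11304 genes tested 7558 passed lower and 14 higher. Cardiomyocyte markers were positive in 12 of 12 cases (median 0.89) and endothelial markers in 11 of 11 (median 0.79, 2 called), and their part was not tested.

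In knockout preparations 0 genes were called between isoproterenol and saline (limma; 807 at an unadjusted p below 0.05, voom 0; background 0%). Psmb9 had 3.27, 4.9, 3.97 and 3.69 FPKM after isoproterenol and 3.85, 4.39 and 4.01 FPKM after saline, overlapping ranges (-0.04 ± 0.15 log2), and Psmb8 differed by -0.27 ± 0.25. Psmb10 (0.40 ± 0.24), Psmb5 (0.69 ± 0.37), Psmb6 (0.54 ± 0.34), Psmb7 (0.50 ± 0.31), Psme1 (0.36 ± 0.26) and Psme2 (0.50 ± 0.29) all had positive differences that did not pass. These rested on PNXM654 and PNXM655: without the 3 libraries of high cardiomyocyte score Psmb5 was at 0.10, Psmb7 at 0.05, Psmb6 at -0.02 and Psmb10 at 0.10. Psme1 and Psme2 were then at 0.0017 each. The smallest p belonged to Psmb2, a non-catalytic beta subunit (0.60 ± 0.28, limma unadjusted p = 0.0498), and Psmb3 (0.58), Psma5 (0.35) and Psmb1 (0.51) did not reach that level. Without the same 3 libraries Psmb2 was at 0.20, Psmb3 at 0.15, Psma5 at 0.11 and Psmb1 at 0.15. Lower in every isoproterenol library were Psmd5 and Psme3, 2 of 47 (4.26%, against 4.82% of all genes), and 0 were higher in every one (against 3.33%). All 10 leukocyte markers were negative (median -0.87) and all 12 cardiomyocyte markers positive (median 0.72), and their part was not tested.

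Around the proteasome, isoproterenol against saline in wild-type preparations gave Maff, a small partner of Nfe2l1-type factors, at 0.67 ± 0.17, the muscle ligase Trim54 at 1.43 ± 0.41 and the class I transactivator Nlrc5 at -0.58 ± 0.22, none of which passed (limma adjusted p = 0.0867 to 0.165). In knockout preparations Nfe2l1 differed by 0.37 ± 0.18 and Shfm1, the small lid subunit Sem1, by 0.52 ± 0.27, and neither passed.

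Whether the isoproterenol difference depended on genotype was tested directly as an interaction, and 0 genes passed (limma; 294 at an unadjusted p below 0.05, voom 0; background 0%). Psmb9 came nearest among the 47, at -0.57 ± 0.21 (limma unadjusted p = 0.0182, adjusted p = 1.00), the only one with an unadjusted p below 0.05. Psmb8 stood at -0.22 ± 0.35, Psmb10 at -0.30 ± 0.34, Psmb5 at -0.20 ± 0.53, Psmb6 at -0.20 ± 0.49, Psmb7 at 0.02 ± 0.43, Psme1 at -0.11 ± 0.37 and Psme2 at 0.46 ± 0.40, none with an unadjusted p below 0.05. Psme3 (-0.58 ± 0.40), Psme2b (-0.54 ± 0.30), Psma5 (0.30 ± 0.27) and Psmd4 (-0.28 ± 0.28) did not pass. Marker lists differed beside them: 9 of 10 leukocyte markers (median -0.50), 10 of 11 endothelial (median -0.41), 9 of 12 cardiomyocyte (median -0.50) and 7 of 7 red-cell markers (median -2.01) were negative. Dissociation and heat-shock genes were positive in 11 of 12 cases (median 0.30). The part of these lists in the interaction was not tested. Rescaled to all assigned reads, the interaction of Psmb9 was 0.89, the median of all genes moved by 1.29, and all 46 proteasome genes tested passed with positive values. So did 9731 of all 11304 genes tested with that scaling, while 16 passed with negative values.

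In whole hearts after isoproterenol 0 of 10189 genes passed between those labelled knockout and those labelled wild-type (limma; 652 at an unadjusted p below 0.05, voom 0; background 0%), and 0 of 46 proteasome genes. Because Panx1 itself goes against these labels, the direction of any difference is that between labels only. Psmb8 differed by -0.02 ± 0.13, Psmb9 by 0.08 ± 0.12 and Psmb10 by 0.14 ± 0.22, and the groups overlapped for all 3. Psmb5 (0.02 ± 0.19), Psmb6 (-0.11 ± 0.17), Psmb7 (-0.24 ± 0.17), Psme1 (-0.24 ± 0.16) and Psme2 (-0.11 ± 0.15) did not pass either. The smallest p belonged to Psme4, at 17.4 ± 4.07 FPKM in hearts labelled knockout and 21.3 ± 1.24 FPKM in hearts labelled wild-type (-0.30 ± 0.14 log2, limma adjusted p = 0.779). Psmd12 (-0.25 ± 0.15), Psma4 (-0.23 ± 0.14) and Psmd7 (-0.19 ± 0.13) followed. Core and cap subunits were negative in 30 of 31 cases with a median of -0.10, against -0.04 for all genes. Of all 46 tested, 39 were negative, and single libraries turned this: without PNXM239 18 of 46 were negative (median 0.01) and without PNXM241 20 of 46 (median 0.01), and with equal totals outside the mitochondrial chromosome 22 of 46 (median 0.0066). In this comparison 12 of 12 cardiomyocyte markers were negative (median -0.31), while 8 of 8 leukocyte markers were positive (median 0.37). Their part was not tested. No gene of the 46 had groups without overlap (all genes: 0.756% higher, 1.63% lower). Outside the proteasome the interferon-induced GTPase Iigp1 (-0.60 ± 0.16), the receptor chain Ifngr2 (-0.37 ± 0.12) and AI314180 (-0.22 ± 0.12) did not pass.

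Across the 14 preparations most proteasome genes varied together. Pearson's r of a gene with the mean of the 46 others, on log2(FPKM + 1), had a median of 0.89 over the 47 genes and was above 0.8 for 28 of them. These values describe libraries that share depth and scaling and carry no test. Psmb5, Psmb6 and Psmb7 stood at 0.97, 0.98 and 0.98, and Psmb10, inducible by its biology, at 0.89. Psmb8 (-0.11) and Psmb9 (0.10) were among the 4 lowest, with the base chaperone Psmd5 (0.05) and Psme2b (0.09), followed by Psme3 (0.15) and Psmd1 (0.22). In whole hearts Psmb8 (0.57) and Psmb9 (0.34) were less apart from the rest, but still below the median of 0.88 over the 47 genes there.

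The genes most like each inducible subunit over the 14 preparations were named by the highest Pearson's r among 10799 other protein-coding genes. For Psmb8 they were Nrf1 (0.88), Mthfd1l (0.88), Hdac1 (0.87), Rcc2 (0.86) and Trim27 (0.85). For Psmb9 they were Rhog (0.90), H2-T23 (0.87), Myl6 (0.86), Cpne2 (0.86) and Ppp1r18 (0.86). Psmb10 gave Zfp637 (0.98), Dctn2 (0.98), S100a13 (0.98), Stk40 (0.97) and Hint1 (0.97). The 3 lists share no gene.

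Each catalytic gene was also set against marker scores (mean log2(FPKM + 1) of a marker list) across libraries, 18 relations for the inducible genes and 18 more for the constitutive ones. Over the 14 preparations Psmb8 and the leukocyte score had r = 0.68 (permutation p = 0.00788, adjusted p = 0.0709) and rho = 0.67 (permutation p = 0.0119, adjusted p = 0.107), and r = 0.68 without the 2 libraries farthest from the median score. For Psmb9 the values were r = 0.53 (permutation p = 0.0508, adjusted p = 0.305) and rho = 0.51 (permutation p = 0.063, adjusted p = 0.378), and r was 0.19 without the 2 farthest libraries, so that it rested on them. In neither case did the relation pass after adjustment. Within the 4 isoproterenol wild-type libraries the highest leukocyte score (5.10, PNXM647) came with the highest Psmb9 (7.82 FPKM) and not with the highest Psmb8. Single groups hold too few libraries for a correlation within them. The pooled values therefore do not separate differences between groups of genotype and treatment from relations within groups.

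For cardiomyocyte markers the preparations fell into 2 clusters, 11 libraries and the 3 of high score, and the relation was taken within the 11. Over all 14 libraries Pearson's r passed after adjustment for Psmb5, Psmb6, Psmb7 and Psmb10. The rank correlation rho passed for Psmb5, Psmb6 and Psmb7 and not for Psmb10. All these relations span the gap between the clusters and are not given a value. Psmb7 had r = 0.55 (permutation p = 0.0814, adjusted p = 0.244) and rho = 0.65 (permutation p = 0.0332, adjusted p = 0.199), Psmb6 r = 0.55 (permutation p = 0.0783, adjusted p = 0.244) and rho = 0.41 (permutation p = 0.214, adjusted p = 0.427). Psmb5 (r = 0.41), Psmb10 (r = 0.46), Psmb8 (r = -0.44) and Psmb9 (r = -0.07) had adjusted permutation p-values of 0.248, 0.248, 0.248 and 0.846. None of the 6 passed within the 11 libraries. In whole hearts none of the 18 relations passed after adjustment, the smallest adjusted p being 0.136 for Psmb7 and cardiomyocyte markers (r = 0.77, exact permutation p = 0.0303, n = 9; rho = 0.57, exact permutation p = 0.121).

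**Figure D5:**
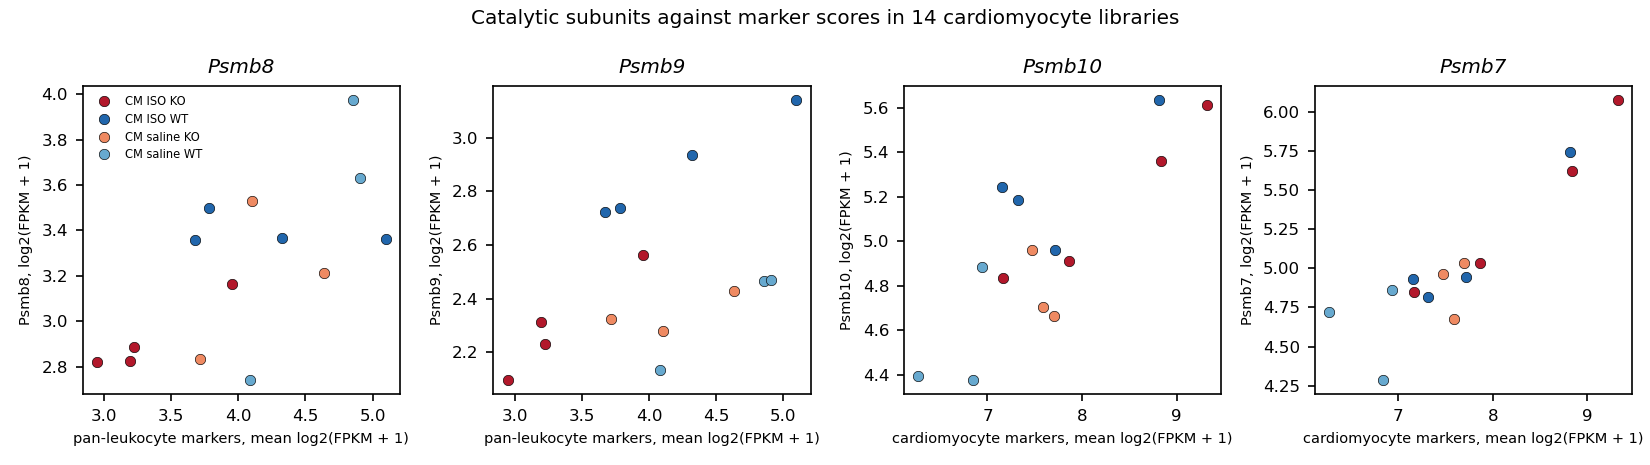
Levels of Psmb8 and Psmb9 against the leukocyte marker score, and of Psmb10 and Psmb7 against the cardiomyocyte marker score, in the 14 cardiomyocyte preparations (CM; ISO, isoproterenol), all on mean log2(FPKM + 1) scales. The 3 libraries at scores of 8.81 to 9.32 stand apart in the cardiomyocyte panels and hold the highest Psmb7 values.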

How the data were processed

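The authors deposited 1 table of gene-level FPKM values for 23 libraries with a gene length in bases, another deposited column used as it stands. Reads were aligned with HISAT2 2.0.5 and counted with featureCounts, per the submitters' processing notes. No source used here gives a genome build, but 99.9% of 45142 shared gene identifiers overlapped their GRCm38 positions. Every one of 392415 checked values was a whole read count within 2.15e-06 after undoing length and scale, so whole reads were recovered. The deposited FPKM carry a scaling between libraries of 0.426 to 1.88 times the assigned reads, and the main results keep it. Genes with at least 1 FPKM in enough libraries were tested on log2(FPKM + 1) with limma 3.58.1 (R 4.3.3), which understates changes of low genes, and p-values were adjusted over all genes by the Benjamini-Hochberg method. Cardiomyocyte groups shared 1 fit, whole hearts had another, and a further fit joined the isoproterenol samples. Fits were run on simulated data with known changes and no differences in cell makeup, which does not show how they handle such differences. Correlations used 100000 resamples or exact permutation (Python 3.11.15, scipy 1.17.1). Only the identifiers in the headers mark libraries as separate animals, and p-values measure the spread between them. Headers marked WHO were read as whole heart. The 6 catalytic genes, Psme1 and Psme2 are named in every comparison, with up to 4 more genes of smallest p from the proteasome genes and from each other list. Members, lists and tests were chosen with earlier results of these data known. Normalization, pseudocount, filter, moderation, fitted groups, voom on whole reads and left-out libraries were varied. Some genes of these lists are not reported here.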

Additional observations from a re-analysis of the deposited data

Results flagged for a closer look

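In groups of 4 or 5 libraries, 8 of 48 catalytic and activator measures had a library far from the rest of its group by Dixon's criterion, which chance meets in about 1 in 20 groups. The measures share genes and libraries and are not independent, so this count is no test of an excess over that rate. Among isoproterenol wild-type preparations, PNXM645 stood apart for Psmb8 at 10.3 FPKM, where the other 3 lay between 9.27 and 9.33 FPKM. PNXM648 stood apart for Psmb7 at 52.5 FPKM and for the inducible-minus-constitutive difference at -1.72. Among hearts labelled knockout, PNXM239 had the highest Psmb8 share of its pair at 4.52%, and PNXM229 the highest Psmb10 share at 29.95%. Among hearts labelled wild-type, PNXM241 stood apart for Psmb5 at 88.4 FPKM, Psmb7 at 119 FPKM and Psme1 at 41.8 FPKM.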

How the results depend on the processing

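Scaling limits the comparisons between cardiomyocyte groups most. With FPKM rescaled to all assigned reads, chosen after seeing the data, 5983 genes and 20 proteasome genes were called between saline genotypes, 5083 and 36 between isoproterenol genotypes, 7572 and 24 between isoproterenol and saline in wild-type preparations, and 9747 and 46 for the interaction, nearly all in the direction of the overall shift. Each of these comparisons tested 11304 genes, of which 46 were proteasome genes. Between preparations and hearts, the same rescaling called 10385 of 11807 genes and 48 of 48 proteasome genes. It left Psmb8 at 0.46 and Psmb9 at 0.65 and turned the called Psmb10 difference to -0.56. Over the other settings Psmb8 lay at 1.45 to 1.82 and Psmb9 at 1.51 to 2.18, and 28 to 38 proteasome genes were called as each library was left out. The Psmb9 difference between isoproterenol genotypes lay between -0.70 and -0.47 over those settings and between -0.67 and -0.50 as each library was left out, and never passed (limma adjusted p = 0.412 to 0.999 there). No paired analysis was possible because the columns carry no replicate number.

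Between isoproterenol and saline in wild-type preparations, 129 genes were called with a minimum of 5 FPKM, 0 with equal totals outside the mitochondrial chromosome, 2 after quantile normalization, 2 with only the compared groups fitted and 1 without the 3 libraries of high cardiomyocyte score, also chosen after seeing the data. Other settings stayed nearer the 84 of the main fit: 98 with voom, 107 without a filter, 78 with a pseudocount of 0.1 and 72 with robust moderation. Without a filter 10 genes were called between saline genotypes. With a minimum of 5 FPKM 4170 were called between preparations and hearts, where fewer genes were tested. As each library was left out, 0 to 222 genes were called for isoproterenol in wild-type preparations, 0 to 10 between saline genotypes, 0 to 1 for isoproterenol in knockout preparations, 0 to 2 for the interaction and 0 to 2 between heart labels.

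Signs turned for these log2 differences, none of which passed in the results above; the cause was not tested. Equal totals gave, between saline genotypes, -0.13 for Psme1; between isoproterenol genotypes, 0.039 for Psmb10 and 0.072 for Psme1; for isoproterenol in wild-type preparations, -0.28 for Psme2; for the interaction, 0.078 for Psmb8, 0.012 for Psmb10, 0.11 for Psmb5, 0.11 for Psmb6, 0.20 for Psme1 and 0.019 for Psmd4. They gave 0.051 for Psmb8 between heart labels, and 0.037 for Psme1 and 0.14 for Psme2 between preparations and hearts. Quantile normalization gave -0.060 for Psme1 between saline genotypes, -0.13 for Psme2 for isoproterenol in wild-type preparations, 0.0025 for Psme1 in the interaction, and 0.076 for Psme1 and 0.11 for Psme2 between preparations and hearts. Rescaling to assigned reads, relative to the median of all genes, gave -0.024 for Psmb10 and -0.17 for Psme1 between saline genotypes, 0.19 for Psmb10 and 0.21 for Psme1 between isoproterenol genotypes, -0.17 for Psme2 for isoproterenol in wild-type preparations, and for the interaction 0.080 for Psmb8, 0.18 for Psmb10, 0.27 for Psmb5, 0.24 for Psmb6, 0.34 for Psme1 and 0.12 for Psmd4. Without the 3 libraries, isoproterenol genotypes gave -0.28 for Psmb5, -0.14 for Psmb6 and -0.094 for Psme2, isoproterenol gave -0.11 for Psme2 in wild-type and 0.051 for Psmb9 and -0.017 for Psmb6 in knockout preparations, and the interaction of Psmb7 was -0.23.

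As each library was left out, signs also turned between saline genotypes for Psmb8 (-0.61 to 0.0059), Psmb9 (-0.12 to 0.045) and Psme1 (-0.061 to 0.22), and between isoproterenol genotypes for Psmb10 (-0.22 to 0.048), Psmb5 (-0.19 to 0.32), Psmb6 (-0.065 to 0.42) and Psme1 (-0.21 to 0.083). For isoproterenol they turned for Psmb8 (-0.40 to 0.21) and Psme2 (-0.11 to 0.17) in wild-type and Psmb9 (-0.13 to 0.023) in knockout preparations. In the interaction they turned for Psmb8 (-0.48 to 0.14), Psmb5 (-0.47 to 0.042), Psmb6 (-0.43 to 0.050), Psmb7 (-0.21 to 0.23) and Psme1 (-0.28 to 0.017). Between heart labels they turned for Psmb8 (-0.089 to 0.070), Psmb9 (-0.0088 to 0.14), Psmb10 (-0.019 to 0.31), Psmb5 (-0.13 to 0.16), Psmb6 (-0.21 to 0.017) and Psme2 (-0.18 to 0.028), and between preparations and hearts for Psme2 (-0.10 to 0.083).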
